A study of Mus musculus with 16 samples.

Results

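Aire, the gene for the autoimmune regulator, and its surroundings were followed in ATAC-seq libraries of mouse medullary thymic epithelial cells (mTECs), across 2 levels of MHC class II and 4 genotypes. ATAC-seq marks open chromatin through the insertion of adapters by the transposase Tn5. The window was chromosome 10 from 77440000 to 77560000 of the mm9 build, and its members were the 500 bp regions of the deposited signal table that lay wholly inside it. There were 47 such regions of 250313 in the table. Aire was placed at about 77.493 to 77.506 Mb. The limits of the window were set by position and not by any measured value, though with earlier results of these data known.

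Of the 47 regions, 11 lay below the Aire interval, 9 inside it, 1 across its upper end, 6 within 10 kb beyond that end and 20 farther on. Aire lies on the minus strand in the RefSeq table of GRCm38.p6, so its transcription starts at the upper end of the interval. The protein-coding genes stand in the order Trpm2, Cfap410, Pfkl, Aire, Dnmt3l and Icosl in that assembly, and RefSeq has Aire and Dnmt3l overlap. A Dnmt3l promoter of RefSeq, chr10:78042037-78042336 of GRCm38.p6, lies at lower coordinates than the Aire promoter. Each region is named here by the distance of its centre from 77.506 Mb. A negative distance runs into Aire and on towards Pfkl, and a positive one runs upstream of Aire, towards Dnmt3l and Icosl. Because the interval is given only to the nearest kilobase, and no mm9 gene models were used here, no region was assigned to a promoter, exon or intron, or to 1 gene.

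The cells came from 4-week-old C57BL/6 mice and were sorted as negative for DAPI and CD45, positive for EpCAM and UEA and low for Ly51. They were then split into a fraction high in MHC class II (mTEChi) and a low one (mTEClo). With 60000 cells in a reaction, each of the genotypes Aire-/-, Aire+/+, Brg1-/- and Brg1+/+ was profiled in both sorts, which gave 8 groups of 2 libraries. The labels do not name the allele, the part of the gene removed, or a promoter that drives Cre. The Brg1+/+ libraries are marked NOCRE, so Brg1-/- and Brg1+/+ may differ in Cre as well as in Brg1. Separate mice are not stated for the libraries within a group, so the p-values reflect only the spread among libraries, which may be technical.

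Aire protein drives the transcription of many tissue-restricted genes in mTECs, so that developing T cells that react to these self antigens are removed or diverted. It is made mainly by mature mTECs with much MHC class II. In mice, a conserved element upstream of the gene that responds to NF-kB is required for Aire expression in mTECs; its mm9 position was not used here and no region is equated with it. Brg1 is the ATPase of SWI/SNF complexes, which move and evict nucleosomes. Among the neighbours, Dnmt3l encodes a cofactor without catalytic activity for the enzymes that set new DNA methylation, Pfkl a phosphofructokinase of glycolysis, Trpm2 a cation channel, and Icosl the ligand of the T cell costimulatory receptor ICOS.

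The Aire promoter of RefSeq is shown because the strongest region next to Aire lies at this end of the gene. It spans chr10:78043561-78043860 of GRCm38.p6 on the minus strand, a build whose coordinates are not those of the signal table. The run reads 5′ to 3′, from 250 bases before the start to 50 after it, and capitals mark the CCAAT match, which reads on the other strand, and the TATAAA match.

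Aire promoter: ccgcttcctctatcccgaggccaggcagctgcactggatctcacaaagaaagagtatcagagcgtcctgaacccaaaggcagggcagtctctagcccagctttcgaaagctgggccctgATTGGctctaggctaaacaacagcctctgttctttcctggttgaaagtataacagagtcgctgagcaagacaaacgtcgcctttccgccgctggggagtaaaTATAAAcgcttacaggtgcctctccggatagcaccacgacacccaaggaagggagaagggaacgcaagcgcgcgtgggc

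TATAAA was found once, beginning 29 bases before the start, and 13.6% of 32851 RefSeq promoters of this length held it on either strand. CCAAT was found once, at 131 bases before the start, and 37.4% of promoters held it. TGANTCA and GGGCGG had 0 matches on either strand, against 7.81% and 35.7% of promoters with one. A consensus motif of NF-kB also had 0, against 1.63% of promoters. The matches did not overlap each other. The promoter held 16 CG pairs, more than 67.0% of promoters, whose median was 7. These matches describe the letters of this stretch only.

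Signal is the authors' normalized value per region. It is not a count, and read depth per library is unknown. Library medians ranged from 8.51 to 19.8, while the 99th percentiles lay between 213.7 and 217.3. The Aire+/+ mTEChi libraries were the least alike, with a Pearson r of 0.55 across regions. In the other groups it lay between 0.60 and 0.81. Replicate 2 of Aire+/+ mTEChi had the lowest median r with the other libraries of its sort, 0.56. Member values in each library partly sit on shared levels: 12 to 29 of the 47 per library were shared with over 100 other regions. These were not only low values. The highest shared member value ran from 9.77 in replicate 1 of Brg1+/+ mTEClo to 41.1 in replicate 2 of Aire+/+ mTEChi. Mean signal of the members ran from 4.88 to 157.8 with a median of 13.95, against a median of 14.18 over all regions. Of the 47, 8 were at or above the 90th percentile of the table. Of the markers of mature mTECs, Aire alone lies in the window, and regions elsewhere carry no gene names, so the sort labels were set against Aire alone. In bulk libraries, a larger share of cells with an open region and a region more open in each cell cannot be told apart.

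Chromatin across the window was on the whole more open in mTEChi. limma on log2(signal + 1), with the 16 libraries in 1 fit and Benjamini-Hochberg adjustment over the 225281 regions past the filter on low signal, tested 45 of the 47 members. Averaged over the 4 genotypes, 24 of the 45 were higher in mTEChi at an adjusted p under 0.05 and 3 were lower. That is 53.3% higher and 6.67% lower, against a background of 27.1% and 10.6% of all regions (37.7% either way). The median log2 fold change of mTEChi over mTEClo was 0.97 for the 45 and 0.33 for all regions, and 37 of the 45 were positive, against 65.4% of all regions. Signs were positive in all 4 genotypes at 27 of the 45 (background 31.9% of regions) and negative in all 4 at 2 of the 45 (12.1%).

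This excess is measured on the authors' scale. Setting every library to the same median lowered each of these fold changes by 0.43. The calls were then 13 higher and 4 lower, or 28.9% and 8.89% of the members, against 14.5% and 20.2% of all regions. Quantile normalization gave 17 higher, 37.8% of the members against 16.5% of all regions. Without replicate 2 of Aire+/+ mTEChi, the library that stood apart, 22 were higher and 2 lower. Of the calls, 13 higher and 2 lower were kept under every other setting that tested them.

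**Figure D1:**
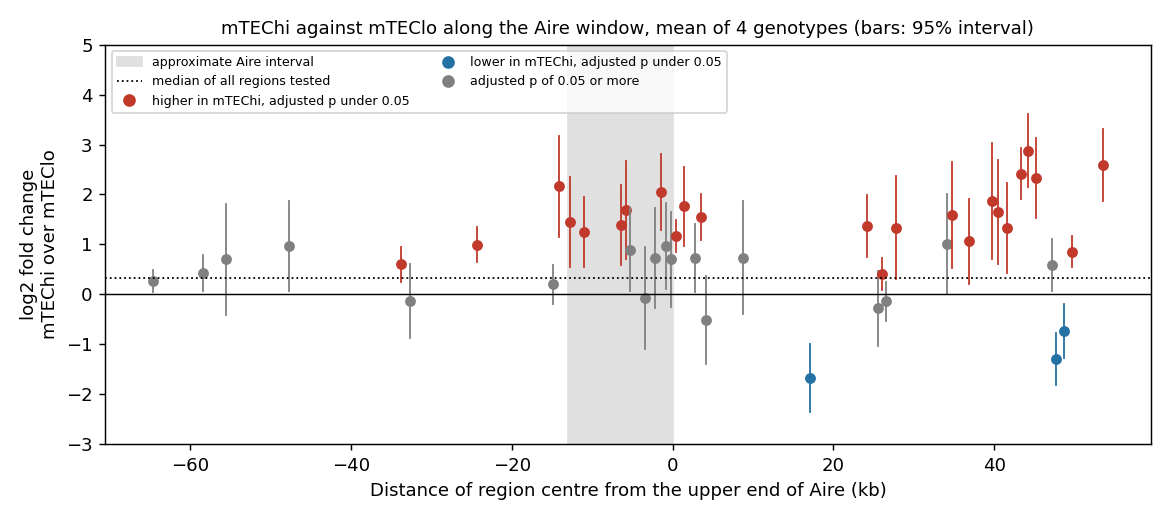
Log2 fold change of signal, mTEChi over mTEClo averaged over 4 genotypes, for the 45 tested regions (points, with 95% intervals) against distance of the centre from the upper end of Aire in kb. The dotted line is the median of all regions tested, 0.33. Called regions that are higher in mTEChi stand at both ends of the Aire interval and from +39.67 to +45.24 kb, and the 3 called lower stand at +17.03, +47.7 and +48.72 kb.

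The strongest region near the start of Aire stood at +0.38 kb (chr10:77506130-77506629), just past the stated end of the gene. In mTEChi it had 142 and 173 in Aire-/-, 154 and 115 in Aire+/+, 107 and 101 in Brg1-/-, with 132 and 99.8 in Brg1+/+. In mTEClo it had 63.7 and 69.97 in Aire-/-, 45.8 and 42.3 in Aire+/+, 70.7 and 53.6 in Brg1-/-, with 39.4 and 66.9 in Brg1+/+. All 8 mTEChi libraries lay above all 8 mTEClo libraries, as at 5 of the 45 members (background 5.15% of regions). The log2 fold change averaged over genotypes was 1.17 (SE 0.16, limma adjusted p = 4.77e-07), and 0.74 with equal medians (adjusted p = 0.00186). Group means ran from 157.7 ± 22.2 in Aire-/- mTEChi through Aire+/+, Brg1+/+ and Brg1-/- mTEChi (103.9 ± 4.70) to 66.8 ± 4.42 in Aire-/- mTEClo and 44.0 ± 2.44 in Aire+/+ mTEClo (SD, n = 2 each). Neighbouring groups in this order overlapped in their libraries, apart from the step between the sorts.

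Within a genotype the same region was called higher in mTEChi in 3 of 4. The log2 fold change was 1.22 in Aire-/- (limma adjusted p = 0.00942), 1.57 in Aire+/+ (0.00130) and 1.15 in Brg1+/+ (0.0135). Brg1-/- gave 0.75 and did not pass (0.132). With 2 libraries a group these single-genotype calls are fragile. The Aire-/- call was lost without mTEChi replicate 2 (0.100), mTEClo replicate 1 (0.0792) or mTEClo replicate 2 (0.0564). The Brg1+/+ call was lost without mTEChi replicate 1 (0.123) or mTEClo replicate 1 (0.213). Neither passed with equal medians (0.0614 and 0.251), whereas the Aire+/+ call passed under every setting that tested it.

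**Figure D2:**
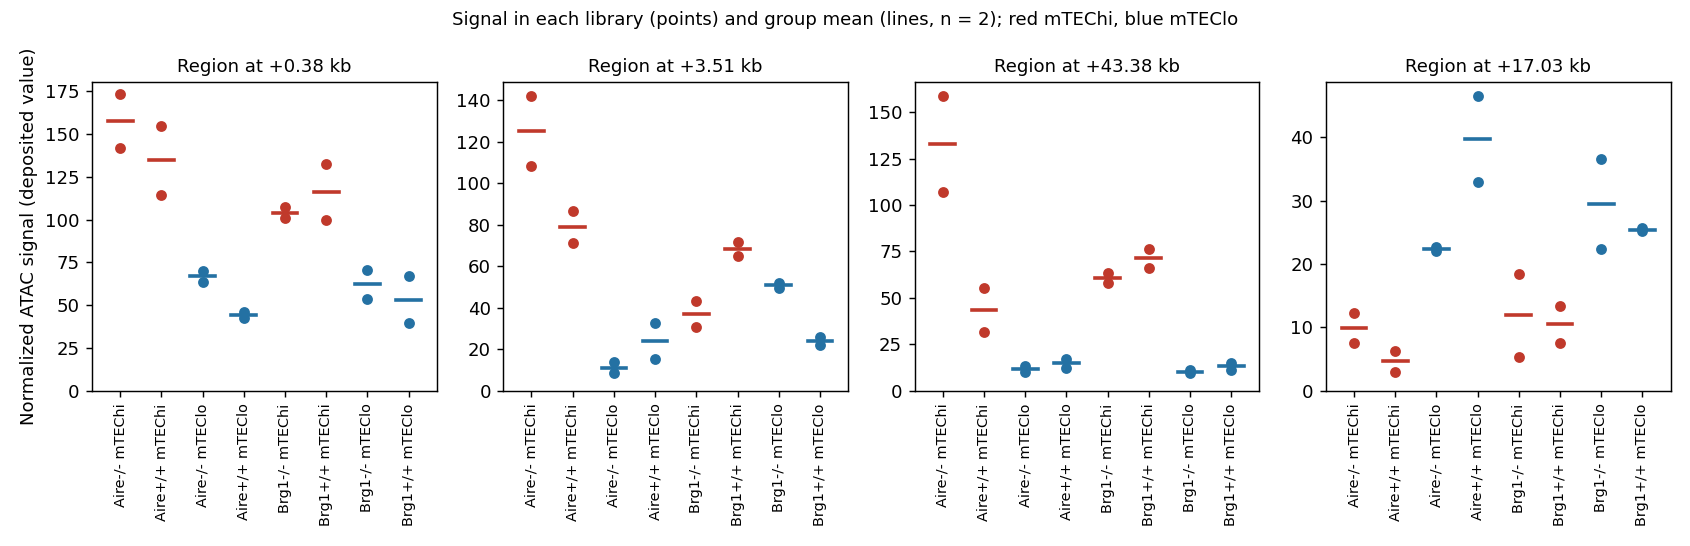
Deposited normalized signal in each library (points) and group mean (lines, n = 2) for 4 regions, with mTEChi in red and mTEClo in blue. At +0.38 and +43.38 kb every mTEChi library lies above every mTEClo library, at +17.03 kb every one lies below, and at +3.51 kb the Brg1-/- sorts are in the opposite order to the other genotypes.

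Inside the Aire interval the 9 regions were weak, and 5 of them were called higher in mTEChi on the mean of genotypes. The strongest call was at -1.4 kb (chr10:77504348-77504847). In mTEChi it had 33.8 and 35.5 in Aire-/-, 37.5 and 16.3 in Aire+/+, 17.97 and 35.6 in Brg1-/-, with 8.08 and 17.95 in Brg1+/+. Its mTEClo libraries had 7.696 and 12.2 in Aire-/-, 5.301 and 1.05 in Aire+/+, 5.56 and 7.09 in Brg1-/-, with 3.23 and 2.62 in Brg1+/+. Of the 8 mTEChi libraries, 7 lay above the highest mTEClo library, and the exception was replicate 1 of Brg1+/+. On the mean of genotypes it was higher by a log2 fold change of 2.04 (SE 0.37, limma adjusted p = 5.52e-05). In Aire+/+ alone it was 2.85 (adjusted p = 0.0135), a call that was lost without mTEChi replicate 1 (0.121) or mTEClo replicate 2 (0.255).

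The other 4 called regions of the interval lay at -12.73, -11.05, -6.46 and -5.84 kb. At -12.73 kb (chr10:77493021-77493520), near the far end of the gene, mTEChi had 14.3 and 19.03 in Aire-/-, 7.61 and 29.4 in Aire+/+, 7.41 and 11.4 in Brg1-/-, with 15.6 and 5.42 in Brg1+/+. The -12.73 kb mTEClo values were 1.14 and 4.19 in Aire-/-, 5.81 and 5.199 in Aire+/+, 6.11 and 7.01 in Brg1-/-, with 3.44 and 1.495 in Brg1+/+. The Aire+/+ mTEChi libraries were far apart here, and replicate 2 was the highest of the 16. The log2 fold change of 1.45 (limma adjusted p = 0.00952) did not pass with equal medians (0.0685).

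At -11.05 kb (chr10:77494701-77495200) mTEChi signal was 32.2 and 30.5 in Aire-/-, 25.5 and 9.12 in Aire+/+, 18.02 and 23.8 in Brg1-/-, with 16.2 and 10.2 in Brg1+/+. The -11.05 kb mTEClo values were 9.32 and 12.2 in Aire-/-, 7.89 and 9.32 in Aire+/+, 3.899 and 5.55 in Brg1-/-, with 5.45 and 8.84 in Brg1+/+. Both Aire-/- mTEChi libraries were above all others, and replicate 2 of Aire+/+ and replicate 2 of Brg1+/+ lay within the mTEClo range. The log2 fold change was 1.25 (limma adjusted p = 0.00459), and neither quantile normalization (0.0501) nor equal medians (0.0664) kept the call.

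At -6.46 kb (chr10:77499286-77499785) mTEChi signal was 14.8 and 27.02 in Aire-/-, 15.6 and 9.68 in Aire+/+, 8.19 and 11.4 in Brg1-/-, with 11.7 and 18.98 in Brg1+/+. The -6.46 kb mTEClo values were 6.83 and 9.41 in Aire-/-, 3.81 and 1.08 in Aire+/+, 9.499 and 4.34 in Brg1-/-, with 5.01 and 2.69 in Brg1+/+. All but replicate 1 of Brg1-/- mTEChi lay above every mTEClo library, and the log2 fold change was 1.39 (limma adjusted p = 0.00582; 0.0599 with equal medians). At -5.84 kb (chr10:77499913-77500412) mTEChi signal was 16.03 and 28.5 in Aire-/-, 5.74 and 16.5 in Aire+/+, 5.396 and 16.8 in Brg1-/-, with 11.6 and 7.84 in Brg1+/+. The -5.84 kb mTEClo values were 4.696 and 6.81 in Aire-/-, 1.51 and 10.5 in Aire+/+, 2.39 and 6.52 in Brg1-/-, with 0.313 and 0.551 in Brg1+/+. The lowest pair of values belonged to Brg1+/+ mTEClo, and the log2 fold change of 1.68 passed under every setting that tested it (limma adjusted p = 0.00591). The call in Brg1+/+ alone, 2.88 (0.0430), was lost on leaving out any 1 of its 4 libraries (0.109 to 0.184). It was also lost at a pseudocount of 5 (0.103), under both rescalings, quantile normalization (0.0878) and equal medians (0.0930), with the 8 libraries of the line alone in the fit (0.0598) and with quality weights (0.0560).

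The 4 remaining regions of the interval did not pass on the mean of genotypes. At -5.26 kb (chr10:77500493-77500992) mTEChi signal was 29.99 and 23.7 in Aire-/-, 6.91 and 4.44 in Aire+/+, 10.6 and 8.13 in Brg1-/-, with 6.83 and 14.8 in Brg1+/+. The -5.26 kb mTEClo values were 4.696 and 13.7 in Aire-/-, 4.92 and 10.8 in Aire+/+, 3.83 and 5.97 in Brg1-/-, with 1.52 and 5.12 in Brg1+/+. The Aire-/- mTEChi libraries were the highest 2 of the 16 (log2 fold change over genotypes 0.89, limma adjusted p = 0.0848).

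At -3.42 kb (chr10:77502335-77502834) mTEChi signal was 11.8 and 13.4 in Aire-/-, 4.97 and 8.06 in Aire+/+, 1.14 and 31.7 in Brg1-/-, with 4.29 and 1.56 in Brg1+/+. The -3.42 kb mTEClo values were 9.41 and 8.03 in Aire-/-, 9.197 and 20.8 in Aire+/+, 2.04 and 5.97 in Brg1-/-, with 2.87 and 7.13 in Brg1+/+. The order of the sorts differed by genotype: mTEChi lay above mTEClo without overlap in Aire-/-, below it without overlap in Aire+/+, and the sorts overlapped in both Brg1 genotypes. The Brg1-/- mTEChi libraries held both the highest and the lowest value of the 16, and this was the only member of the interval with a negative value (log2 fold change -0.070, limma adjusted p = 0.929).

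At -2.16 kb (chr10:77503591-77504090) mTEChi signal was 29.8 and 18.6 in Aire-/-, 29.1 and 1.33 in Aire+/+, 5.396 and 9.23 in Brg1-/-, with 5.54 and 5.91 in Brg1+/+. The -2.16 kb mTEClo values were 8.85 and 5.91 in Aire-/-, 8.65 and 10.5 in Aire+/+, 2.41 and 6.74 in Brg1-/-, with 6.31 and 0.556 in Brg1+/+. The Aire+/+ mTEChi libraries were again far apart, and without replicate 2 the log2 fold change over genotypes was 1.18 (limma adjusted p = 0.0321), against 0.72 with it (0.259).

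At -0.84 kb (chr10:77504914-77505413) mTEChi signal was 27.997 and 27.04 in Aire-/-, 12.8 and 10.03 in Aire+/+, 7.05 and 5.96 in Brg1-/-, with 3.74 and 6.98 in Brg1+/+. The -0.84 kb mTEClo values were 5.202 and 9.19 in Aire-/-, 3.81 and 10.7 in Aire+/+, 6.202 and 1.59 in Brg1-/-, with 3.77 and 2.76 in Brg1+/+. Both Aire-/- mTEChi libraries were above the other 14, while the sorts overlapped in Aire+/+ and in both Brg1 genotypes. The log2 fold change over genotypes was 0.97 (limma adjusted p = 0.0695, and 0.0496 at a pseudocount of 5). It was 1.16 without replicate 1 of Brg1-/- mTEClo.

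The region across the end of the interval, at -0.18 kb (chr10:77505574-77506073), was weak in spite of its strong neighbour. In mTEChi it had 4.61 and 6.05 in Aire-/-, 7.61 and 38.5 in Aire+/+, 5.85 and 7.6000 in Brg1-/-, with 8.29 and 10.1 in Brg1+/+. The -0.18 kb mTEClo values were 5.202 and 0.883 in Aire-/-, 8.95 and 14.4 in Aire+/+, 7.51 and 1.73 in Brg1-/-, with 9.21 and 2.96 in Brg1+/+. A single library, replicate 2 of Aire+/+ mTEChi, stood far above the rest, and the sorts were not told apart (log2 fold change 0.70, limma adjusted p = 0.251).

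Upstream of Aire, between the end of the gene and 10 kb beyond it, the second strong region stood at +3.51 kb (chr10:77509258-77509757). In mTEChi it had 108 and 142 in Aire-/-, 86.7 and 71.2 in Aire+/+, 43.4 and 30.997 in Brg1-/-, with 64.9 and 71.9 in Brg1+/+. In mTEClo it had 13.8 and 8.73 in Aire-/-, 15.1 and 32.8 in Aire+/+, 49.6 and 52.2 in Brg1-/-, with 21.96 and 26.01 in Brg1+/+. The Aire-/- line held the extremes, with the highest values in mTEChi and the lowest in mTEClo, and both Brg1-/- mTEChi libraries lay below the Brg1-/- mTEClo ones. Averaged over genotypes, the log2 fold change was 1.54 (SE 0.23, limma adjusted p = 2.13e-06; 1.11 and 0.000414 with equal medians). In order of level, Aire-/- mTEChi (125.2 ± 23.9) was followed by Aire+/+ mTEChi (79.0 ± 10.96), Brg1+/+ mTEChi (68.4 ± 4.92), Brg1-/- mTEClo (50.9 ± 1.83), Brg1-/- mTEChi (37.2 ± 8.75) and the other mTEClo groups (11.2 ± 3.55 to 24.0 ± 2.87; SD, n = 2 each). Neighbours in this order overlapped in their libraries at 2 places, Aire+/+ with Brg1+/+ mTEChi and Brg1+/+ with Aire+/+ mTEClo.

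By genotype, the log2 fold change of mTEChi over mTEClo at +3.51 kb was 3.38 in Aire-/- (limma adjusted p = 9.01e-06), 1.77 in Aire+/+ (0.0109), -0.46 in Brg1-/- (0.550) and 1.48 in Brg1+/+ (0.0270). The 95% interval in Brg1-/- ran from -1.38 to 0.45. The difference between the 2 Brg1 genotypes in this fold change was -1.94 (SE 0.64), with an unadjusted p of 0.00461 and an adjusted p of 0.528 over all regions, so it did not pass. The Aire-/- call held under every setting that tested it. The Aire+/+ call was lost without mTEChi replicate 1 (0.0665) or mTEClo replicate 1 (0.199) and with equal medians (0.0526). The Brg1+/+ call was lost on leaving out any 1 of its 4 libraries (0.0808 to 0.140) and under both rescalings (0.143 and 0.179).

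A weaker region between the strong ones, at +1.37 kb (chr10:77507124-77507623), had 36.03 and 38.1 in Aire-/-, 20.4 and 21.04 in Aire+/+, 13.9 and 12.4 in Brg1-/-, with 8.54 and 23.2 in Brg1+/+ in mTEChi. The +1.37 kb mTEClo values were 4.696 and 9.64 in Aire-/-, 6.15 and 14.7 in Aire+/+, 4.899 and 3.402 in Brg1-/-, with 5.45 and 0.587 in Brg1+/+. Both Aire-/- libraries were the highest of their sort in mTEChi, and 5 mTEChi libraries lay above every mTEClo library. With a log2 fold change of 1.76 (SE 0.39, limma adjusted p = 0.000520), it passed under every setting that tested it.

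At +2.72 kb (chr10:77508471-77508970) mTEChi signal was 39.8 and 27.02 in Aire-/-, 29.5 and 19.7 in Aire+/+, 12.9 and 11.4 in Brg1-/-, with 11.7 and 10.96 in Brg1+/+. The +2.72 kb mTEClo values were 17.02 and 26.2 in Aire-/-, 10.2 and 12.4 in Aire+/+, 9.02 and 2.24 in Brg1-/-, with 9.77 and 11.6 in Brg1+/+. The Brg1-line libraries were at or below 12.9 in both sorts, and the log2 fold change over genotypes was 0.73 (limma adjusted p = 0.0824; 0.0347 without replicate 1 of Brg1-/- mTEClo).

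At +4.16 kb (chr10:77509910-77510409) mTEChi signal was 23.2 and 1.69 in Aire-/-, 29.8 and 11.1 in Aire+/+, 21.3 and 37.5 in Brg1-/-, with 9.44 and 2.21 in Brg1+/+. The +4.16 kb mTEClo values were 24.7 and 12.4 in Aire-/-, 27.4 and 46.1 in Aire+/+, 7.55 and 16.5 in Brg1-/-, with 4.55 and 29.6 in Brg1+/+. No mTEChi library rose above the highest mTEClo library, Aire+/+ replicate 2, and replicates differed widely (log2 fold change over genotypes -0.51, limma adjusted p = 0.375).

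The last of these regions, at +8.71 kb (chr10:77514459-77514958), had 0.712 and 6.63 in Aire-/-, 10.996 and 33.2 in Aire+/+, 7.87 and 22.2 in Brg1-/-, with 1.15 and 5.67 in Brg1+/+ in mTEChi. The +8.71 kb mTEClo values were 7.54 and 7.85 in Aire-/-, 3.81 and 14.9 in Aire+/+, 1.34 and 8.92 in Brg1-/-, with 0.301 and 0.524 in Brg1+/+. Over the 16 libraries the sorts overlapped, and the highest value again belonged to replicate 2 of Aire+/+ mTEChi (log2 fold change over genotypes 0.74, limma adjusted p = 0.309).

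Farther upstream the 4 largest fold changes of the window stood between +43.38 and +45.24 kb and at +53.53 kb. At +43.38 kb (chr10:77549129-77549628) mTEChi signal was 107 and 159 in Aire-/-, 31.7 and 55.5 in Aire+/+, 58.3 and 63.5 in Brg1-/-, with 66.2 and 76.4 in Brg1+/+. In mTEClo it was 13.5 and 9.95 in Aire-/-, 12.4 and 17.1 in Aire+/+, 9.42 and 11.1 in Brg1-/-, with 14.96 and 11.3 in Brg1+/+. The sorts did not overlap, and within mTEChi the Aire-/- libraries were highest and the Aire+/+ libraries lowest. Over genotypes the difference was 2.42 on the log2 scale (SE 0.25, limma adjusted p = 5.85e-09), the lowest p of the window. It was 3.38 in Aire-/-, 2.46 in Brg1-/- and 2.36 in Brg1+/+ (adjusted p = 4.33e-05, 0.00292 and 0.00211), and these 3 calls held under every setting tried.

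At +44.18 kb (chr10:77549926-77550425) mTEChi signal was 81.4 and 84.3 in Aire-/-, 36.1 and 32.96 in Aire+/+, 43.4 and 47.9 in Brg1-/-, with 36.4 and 64.4 in Brg1+/+. The mTEClo libraries at +44.18 kb had 13.8 and 6.07 in Aire-/-, 8.28 and 6.68 in Aire+/+, 10.3 and 0.354 in Brg1-/-, with 5.01 and 6.96 in Brg1+/+. The sorts again did not overlap, and the log2 fold change over genotypes was 2.88, the largest of the window (SE 0.36, limma adjusted p = 1.33e-07). It was called in Aire-/- (3.04), Brg1-/- (3.57) and Brg1+/+ (2.84). Those calls were lost without Aire-/- mTEChi replicate 1 (0.0523) or mTEClo replicate 2 (0.105), without Brg1-/- mTEClo replicate 2 (0.106), and without Brg1+/+ mTEChi replicate 2 (0.0933) or mTEClo replicate 1 (0.0709). Quantile normalization also lost the Brg1+/+ call (0.0503).

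At +45.24 kb (chr10:77550988-77551487) mTEChi signal was 83.6 and 68.4 in Aire-/-, 52.6 and 27.95 in Aire+/+, 43.3 and 10.3 in Brg1-/-, with 33.2 and 36.3 in Brg1+/+. Signal in mTEClo was 17.6 and 8.196 in Aire-/-, 8.54 and 12.97 in Aire+/+, 2.24 and 10.2 in Brg1-/-, with 10.8 and 0.519 in Brg1+/+. Replicate 2 of Brg1-/- mTEChi was the single mTEChi library within the mTEClo range, and the log2 fold change over genotypes was 2.32 (SE 0.40, limma adjusted p = 2.09e-05). In Aire-/- it was 2.55 (0.0318), which did not pass without any 1 of its 4 libraries (0.0632 to 0.277) or at a pseudocount of 0.5 (0.0514). In Brg1+/+ it was 3.08 (0.00912), which did not pass without mTEChi replicate 2 (0.0644) or mTEClo replicate 2 (0.305).

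The uppermost region of the window, at +53.53 kb (chr10:77559283-77559782), had 35.4 and 45.5 in Aire-/-, 43.8 and 28.7 in Aire+/+, 40.6 and 50.8 in Brg1-/-, with 25.3 and 74.3 in Brg1+/+ in mTEChi. In mTEClo it had 12.3 and 1.29 in Aire-/-, 11.3 and 15.6 in Aire+/+, 2.78 and 2.57 in Brg1-/-, with 8.602 and 6.17 in Brg1+/+. The sorts did not overlap, and the log2 fold change over genotypes was 2.58 (SE 0.35, limma adjusted p = 7.61e-07). It was called in Aire-/- (2.90), Brg1-/- (3.66) and Brg1+/+ (2.42), and the Brg1-/- call held under every setting that tested it. The Aire-/- call was lost without mTEChi replicate 2 (0.0718) or mTEClo replicate 2 (0.278). The Brg1+/+ call was lost without mTEChi replicate 2 (0.247), mTEClo replicate 1 (0.0708) or mTEClo replicate 2 (0.146), and under both rescalings (0.0988 and 0.0684).

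The strongest upstream region, at +49.62 kb (chr10:77555370-77555869), was open in both sorts. Its mTEChi libraries had 157 and 181 in Aire-/-, 162 and 162 in Aire+/+, 182 and 117 in Brg1-/-, with 115 and 136 in Brg1+/+. Its mTEClo libraries had 82.4 and 60.7 in Aire-/-, 96.9 and 46.7 in Aire+/+, 84.2 and 106 in Brg1-/-, with 106 and 96.2 in Brg1+/+. The sorts did not overlap, but the gap was smaller than from +43.38 to +45.24 kb (log2 fold change 0.86, SE 0.15, limma adjusted p = 2.62e-05; 0.43 and 0.0552 with equal medians). It was called in Aire-/- (1.24, 0.00556) and Aire+/+ (1.25, 0.00621). The Aire-/- call was lost without mTEChi replicate 2 (0.0638) or mTEClo replicate 2 (0.109), and the Aire+/+ call without mTEClo replicate 2 (0.282) or with equal medians (0.0932).

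Lower signal in mTEChi was called at 3 members, all upstream of Aire. At +17.03 kb (chr10:77522778-77523277) mTEChi signal was 12.2 and 7.53 in Aire-/-, 2.93 and 6.35 in Aire+/+, 5.396 and 18.4 in Brg1-/-, with 7.56 and 13.4 in Brg1+/+. In mTEClo it was 22.8 and 22.02 in Aire-/-, 33.002 and 46.5 in Aire+/+, 22.4 and 36.6 in Brg1-/-, with 25.2 and 25.7 in Brg1+/+. Every mTEChi library lay below every mTEClo library, which held for 1 of the 45 members (background 1.93%). Over genotypes the difference was -1.68 on the log2 scale (SE 0.33, limma adjusted p = 0.000159). In Aire+/+ it was -2.90 (0.00478), lost without mTEClo replicate 2 (0.0915).

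At +47.7 kb (chr10:77553448-77553947) mTEChi signal was 30.05 and 40.9 in Aire-/-, 16.3 and 20.2 in Aire+/+, 8.33 and 6.99 in Brg1-/-, with 39.5 and 19.7 in Brg1+/+. Values in mTEClo were 67.5 and 50.1 in Aire-/-, 58.3 and 90.6 in Aire+/+, 24.4 and 38.2 in Brg1-/-, with 41.6 and 48.03 in Brg1+/+. The Brg1-/- mTEChi libraries were the lowest of the 16, and the log2 fold change over genotypes was -1.30 (SE 0.25, limma adjusted p = 0.000138). It was called in Brg1-/- (-1.87, 0.0208) and Aire+/+ (-1.94, 0.0132). The first was lost on leaving out any 1 of its 4 libraries (0.0505 to 0.164) and with the 8 libraries of the line alone in the fit (0.0535). The second was lost without mTEChi replicate 1 (0.0612) or mTEClo replicate 2 (0.207).

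At +48.72 kb (chr10:77554475-77554974) mTEChi signal was 22.4 and 16.8 in Aire-/-, 32.5 and 7.3997 in Aire+/+, 34.1 and 36.2 in Brg1-/-, with 42.8 and 63.02 in Brg1+/+. The mTEClo libraries at +48.72 kb had 71.1 and 34.3 in Aire-/-, 56.2 and 55.6 in Aire+/+, 34.9 and 33.8 in Brg1-/-, with 59.7 and 38.2 in Brg1+/+. The sorts overlapped in the Brg1 lines and not in the Aire lines. The log2 fold change of -0.73 (limma adjusted p = 0.0307) was lost on leaving out any 1 of 8 libraries. These were replicate 2 of Aire-/- mTEChi, replicate 1 of Aire-/- mTEClo, replicate 2 of Aire+/+ mTEChi, both of Aire+/+ mTEClo, and replicate 1 of Brg1-/- mTEClo, Brg1+/+ mTEChi and Brg1+/+ mTEClo (0.0544 to 0.110). In Aire+/+ alone it was -1.76 (0.0341), lost on leaving out mTEChi replicate 2 (0.446) or either mTEClo library (0.144 and 0.181), with the line alone in the fit (0.0750) and with quality weights (0.0533). Calls in both directions thus stood within a few kilobases of each other.

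Between +24.22 and +41.54 kb, 8 members were called higher in mTEChi, most of them near the threshold. The one with the lowest p, at +24.22 kb (chr10:77529975-77530474), had 47.7 and 59.8 in Aire-/-, 34.3 and 41.1 in Aire+/+, 10.1 and 32.3 in Brg1-/-, with 22.9 and 34.3 in Brg1+/+ in mTEChi. Its mTEClo libraries had 14.6 and 15.8 in Aire-/-, 13.03 and 10.1 in Aire+/+, 14.99 and 9.65 in Brg1-/-, with 7.86 and 10.5 in Brg1+/+. Only replicate 1 of Brg1-/- mTEChi lay within the mTEClo range (log2 fold change 1.36, SE 0.30, limma adjusted p = 0.000617).

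At +26.02 kb (chr10:77531768-77532267), a region open in all groups, mTEChi signal was 117 and 110.0 in Aire-/-, 85.6 and 87.8 in Aire+/+, 63.9 and 58.97 in Brg1-/-, with 69.5 and 78.9 in Brg1+/+. The +26.02 kb mTEClo values were 56.4 and 43.4 in Aire-/-, 75.1 and 65.7 in Aire+/+, 73.4 and 59.6 in Brg1-/-, with 53.7 and 71.5 in Brg1+/+. The gap was clear in Aire-/- (log2 fold change 1.18, limma adjusted p = 0.0136) and not seen in Brg1-/-, where the libraries of the sorts overlapped. The mean of genotypes, 0.41 (0.0430), became -0.023 with equal medians (0.934) and was lost with quantile normalization (0.182) and on leaving out any 1 of 10 libraries (0.0536 to 0.102). The exceptions were replicate 1 of Aire+/+ mTEChi, Aire-/- mTEClo, Brg1+/+ mTEChi and Brg1-/- mTEClo, and replicate 2 of Brg1-/- mTEChi and Brg1+/+ mTEClo. The Aire-/- call was lost without mTEChi replicate 1 (0.101) or replicate 2 (0.0629), without mTEClo replicate 2 (0.163), and with equal medians (0.0642).

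At +27.82 kb (chr10:77533571-77534070) mTEChi signal was 17.5 and 16.1 in Aire-/-, 10.7 and 27.01 in Aire+/+, 5.81 and 12.9 in Brg1-/-, with 1.36 and 9.73 in Brg1+/+. The +27.82 kb mTEClo values were 3.37 and 1.22 in Aire-/-, 6.31 and 1.16 in Aire+/+, 7.69 and 8.89 in Brg1-/-, with 6.1997 and 0.604 in Brg1+/+. The Aire lines were separated between sorts and the Brg1 lines were not (log2 fold change 1.33, limma adjusted p = 0.0358, over 0.05 on leaving out any 1 of 10 libraries, 0.0582 to 0.118, and under both rescalings, 0.139 and 0.159). The exceptions were replicate 1 of Brg1-/- mTEChi, of Aire-/- mTEClo, and of both sorts of Aire+/+ and Brg1+/+.

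At +34.73 kb (chr10:77540479-77540978) mTEChi signal was 9.86 and 26.7 in Aire-/-, 2.75 and 8.15 in Aire+/+, 8.02 and 23.98 in Brg1-/-, with 9.69 and 14.6 in Brg1+/+. The +34.73 kb mTEClo values were 1.402 and 5.58 in Aire-/-, 0.871 and 11.2 in Aire+/+, 2.41 and 5.78 in Brg1-/-, with 3.28 and 0.556 in Brg1+/+. Replicates were far apart in most groups (log2 fold change 1.60, limma adjusted p = 0.0156). It was over 0.05 without replicate 2 of Aire-/- mTEChi (0.0578), replicate 1 of Aire+/+ mTEClo (0.0547) or replicate 2 of Brg1-/- mTEChi (0.0504), and under both rescalings (0.0661 and 0.0748).

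At +36.88 kb (chr10:77542634-77543133) mTEChi signal was 28.1 and 24.6 in Aire-/-, 10.996 and 22.9 in Aire+/+, 26.4 and 6.86 in Brg1-/-, with 13.9 and 4.69 in Brg1+/+. The +36.88 kb mTEClo values were 1.31 and 8.196 in Aire-/-, 12.1 and 8.54 in Aire+/+, 6.005 and 11.8 in Brg1-/-, with 11.8 and 2.49 in Brg1+/+. The sorts overlapped in every genotype but Aire-/- (log2 fold change 1.06, limma adjusted p = 0.0442, over 0.05 on leaving out any 1 of 10 libraries, 0.0568 to 0.145, and under both rescalings, 0.282 and 0.256). Replicate 1 of Aire+/+ mTEChi and Brg1+/+ mTEClo, and replicate 2 of Brg1-/- mTEChi, Brg1+/+ mTEChi, Aire-/- mTEClo and Brg1-/- mTEClo, could be left out without losing it. The call in Aire-/- alone, 2.57 (0.0427), was lost without either mTEChi library (0.204 and 0.146) or mTEClo replicate 1 (0.421), and under both rescalings (0.0513 and 0.0644).

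At +39.67 kb (chr10:77545418-77545917) mTEChi signal was 22.1 and 28.6 in Aire-/-, 23.04 and 8.06 in Aire+/+, 7.59 and 1.65 in Brg1-/-, with 3.91 and 10.7 in Brg1+/+. The +39.67 kb mTEClo values were 5.301 and 1.33 in Aire-/-, 1.02 and 10.9 in Aire+/+, 0.5099 and 0.902 in Brg1-/-, with 2.82 and 0.6302 in Brg1+/+. The Aire-/- libraries were among the highest 3 in mTEChi, and the log2 fold change of 1.86 passed under every setting that tested it (limma adjusted p = 0.0100).

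At +40.5 kb (chr10:77546255-77546754) mTEChi signal was 24.8 and 36.9 in Aire-/-, 3.13 and 7.53 in Aire+/+, 6.16 and 9.55 in Brg1-/-, with 7.86 and 8.15 in Brg1+/+. The +40.5 kb mTEClo values were 4.92 and 1.25 in Aire-/-, 0.972 and 4.78 in Aire+/+, 2.72 and 0.393 in Brg1-/-, with 6.1997 and 2.96 in Brg1+/+. Both Aire-/- mTEChi libraries were more than 2 times the next highest library (log2 fold change over genotypes 1.65, limma adjusted p = 0.0113; 0.0721 and 0.0600 under the rescalings). In Aire-/- alone it was 3.10 (0.0461), lost on leaving out any 1 of its 4 libraries (0.0761 to 0.318), at a pseudocount of 0.5 (0.0667), under both rescalings (0.0551 and 0.0592) and with the line alone in the fit (0.0587).

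At +41.54 kb (chr10:77547294-77547793) mTEChi signal was 11.7 and 29.2 in Aire-/-, 7.09 and 35.4 in Aire+/+, 8.19 and 6.99 in Brg1-/-, with 5.54 and 13.3 in Brg1+/+. The +41.54 kb mTEClo values were 10.3 and 8.02 in Aire-/-, 3.81 and 3.12 in Aire+/+, 6.29 and 2.26 in Brg1-/-, with 1.67 and 2.71 in Brg1+/+. The mTEChi replicates of both Aire genotypes were far apart (log2 fold change 1.33, limma adjusted p = 0.0166; 0.0639 without replicate 2 of Aire+/+ mTEChi and 0.0627 without replicate 2 of Aire-/- mTEChi, and 0.0573 and 0.110 under the rescalings).

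Below Aire, towards Pfkl, 3 members were called higher in mTEChi. The nearest, at -14.14 kb (chr10:77491607-77492106), had 22.7 and 26.1 in Aire-/-, 10.8 and 19.9 in Aire+/+, 5.396 and 21.2 in Brg1-/-, with 13.6 and 4.69 in Brg1+/+ in mTEChi. The -14.14 kb mTEClo values were 1.27 and 6.63 in Aire-/-, 7.77 and 2.78 in Aire+/+, 0.389 and 1.97 in Brg1-/-, with 2.26 and 0.502 in Brg1+/+. Both replicates of Brg1-/- and Brg1+/+ mTEClo were at or below 2.26, and the log2 fold change was 2.16 (SE 0.50, limma adjusted p = 0.000905).

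At -24.33 kb (chr10:77481421-77481920) mTEChi signal was 60.6 and 78.6 in Aire-/-, 79.4 and 81.9 in Aire+/+, 124 and 119 in Brg1-/-, with 89.03 and 106 in Brg1+/+. In mTEClo it was 37.4 and 43.8 in Aire-/-, 35.8 and 28.3 in Aire+/+, 68.98 and 53.3 in Brg1-/-, with 40.7 and 62.6 in Brg1+/+. All but 1 of the mTEChi libraries, replicate 1 of Aire-/-, lay above every mTEClo library (log2 fold change 1.00, SE 0.17, limma adjusted p = 2.88e-05). In Aire+/+ alone it was 1.32 (0.0140), lost without mTEChi replicate 2 (0.0612) or mTEClo replicate 2 (0.159) and with equal medians (0.110).

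At -33.86 kb (chr10:77471890-77472389) mTEChi signal was 79.1 and 102 in Aire-/-, 71.7 and 133 in Aire+/+, 89.3 and 94.9 in Brg1-/-, with 87.04 and 98.6 in Brg1+/+. In mTEClo it was 65.6 and 53.5 in Aire-/-, 57.3 and 78.8 in Aire+/+, 68.3 and 74.2 in Brg1-/-, with 63.1 and 37.4 in Brg1+/+. Again 7 mTEChi libraries lay above every mTEClo library (log2 fold change 0.60, limma adjusted p = 0.00558), and the call was lost with equal medians (0.17, 0.493).

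The remaining 12 members were without a call. Of these, 5 were open in both sorts. The strongest of the window, at -64.68 kb, ranged from 131.5 to 217.7 in mTEChi and from 114.3 to 164.6 in mTEClo (log2 fold change 0.27, limma adjusted p = 0.0545). The regions at -58.38 and -14.94 kb had mTEChi means of 69.0 ± 12.7 and 71.7 ± 15.9 and mTEClo means of 51.2 ± 10.3 and 62.7 ± 16.6 (SD, n = 8). At +26.53 kb the means were 47.7 ± 7.92 in mTEChi and 52.2 ± 4.55 in mTEClo. At +47.15 kb they were 63.6 ± 45.5 and 36.3 ± 14.3 (limma adjusted p = 0.0646). The others were weak: at -55.51, -47.79, -32.63, +25.48 and +34.09 kb the mTEChi means lay between 9.07 and 14.5 and the mTEClo means between 5.06 and 12.8. The regions at -62.45 and -49.31 kb were under the filter and were not tested. Their mTEChi means were 10.4 ± 6.73 and 4.35 ± 2.95, and their mTEClo means 4.34 ± 4.93 and 5.40 ± 3.28.

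**Figure D3:**
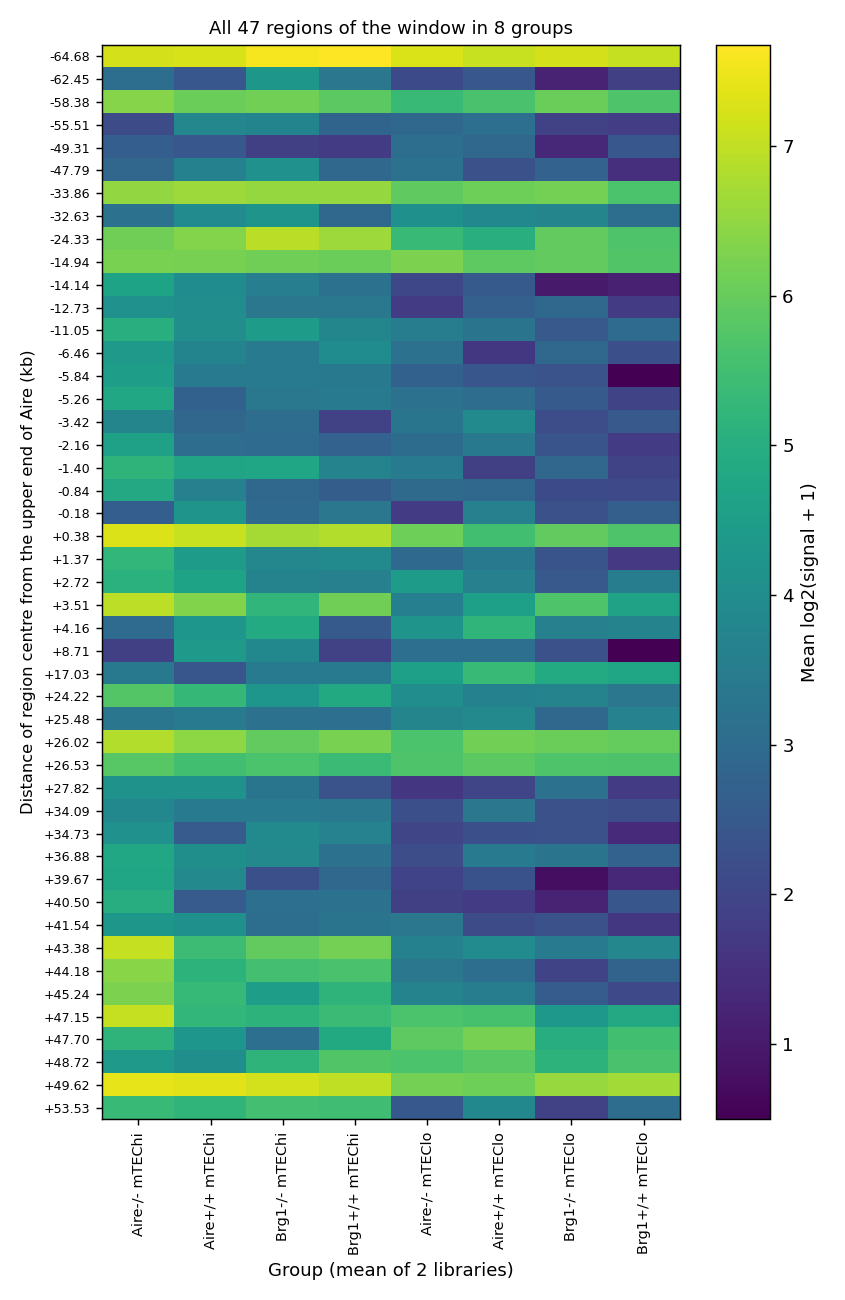
Mean log2(signal + 1) of 2 libraries (colour) for all 47 regions, from the lowest to the highest coordinate down the page, in 8 groups. The regions at -64.68, +0.38 and +49.62 kb are open in every group, those from +43.38 to +45.24 kb in the 4 mTEChi groups, and those inside the Aire interval are weak throughout.

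Single genotypes gave fewer calls over the window. Aire-/- had 10 members called higher in mTEChi and 0 lower, or 22.2% and 0% of the 45 (background 7.15% and 4.22%). Aire+/+ had 5 higher and 3 lower, or 11.1% and 6.67% (5.14% and 3.65%). Brg1-/- had 3 higher and 1 lower, or 6.67% and 2.22%, near its background (6.61% and 1.5%). Brg1+/+ had 7 higher and 0 lower, or 15.6% and 0% (9.21% and 3.75%). Leaving out any 1 of the 4 libraries of a genotype gave 3 to 6 calls in Aire-/-, 2 to 6 in Aire+/+, 2 to 4 in Brg1-/- and 2 to 5 in Brg1+/+. Of the 45, 13 were called higher in 1 genotype or more (background 16.7%) and 5 in 3 genotypes or more (3.25%): those at +0.38, +3.51, +43.38, +44.18 and +53.53 kb. Sorts without overlap, mTEChi above, were counted at 33 of 45 members in Aire-/- (background 33% of regions) and 20 of 45 in Aire+/+ (29.1%). They were counted at 24 of 45 in Brg1-/- (43.7%) and 26 of 45 in Brg1+/+ (39.1%). The opposite order held, in the same order of genotypes, at 6 of 45 (26.3%), 5 of 45 (21.5%), 3 of 45 (10.2%) and 3 of 45 (16.8%). Whether these counts differ between genotypes was not tested.

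No region of the locus was called in either direction between Aire-/- and Aire+/+, in either sort. The comparison called only 47 of 225281 regions in mTEChi and 0 in mTEClo. The lack of calls at the locus therefore cannot tell no change from a change too small to be called. No member had a listed 0 in any library, and inside the interval the Aire-/- mTEChi libraries ranged from 11.8 to 35.5. Since the altered part of the gene is not named, this is no check of the genotype. In mTEChi, Aire-/- against Aire+/+ gave 0 calls over the window (limma, background 0.0209%), with 5 members at an unadjusted p under 0.05 (10.2% of all regions). In mTEClo it gave 0 calls (background 0%), with 2 at an unadjusted p under 0.05 (2.5% of all regions). The direction in mTEChi was mostly upward. Of the 45 members, 34 were positive with a median log2 fold change of 0.43, against 49.9% and -0.0015 for all regions. Inside the interval 9 of 9 were positive, with a median of 0.98 and a range of 0.11 to 2.08. Beyond 10 kb upstream 18 of 20 were positive (median 0.59), and up to 10 kb upstream 4 of 6 (0.33). Below Aire it was 3 of 9 (-0.12), and the region across the upper end was negative (-1.55). All members were measured in the same 4 libraries, so their signs are not independent observations. Leaving out 1 of the 4 libraries gave 31 to 36 positive members and 7 to 9 of those in the interval. In mTEClo 20 of 45 were positive with a median of -0.16, and 6 of 9 inside the interval. The Aire-/- mTEChi libraries lay above both Aire+/+ mTEChi libraries at 20 of 45 members (background 18.9% of regions) and below them at 3 of 45 (18.6%). Without replicate 2 of Aire+/+ mTEChi, the library that stood apart, 34 of 45 members and 7 of 9 in the interval were positive, and the median over members was 0.41. The part of the shared signal levels of members in this result was not tested.

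The members nearest to a call in this comparison lay upstream. At +47.15 kb (chr10:77552900-77553399) mTEChi signal was 122 and 143 in Aire-/-, 58.04 and 23.2 in Aire+/+, 18.8 and 60.99 in Brg1-/-, with 32.7 and 50.8 in Brg1+/+. Across mTEClo the values were 48.6 and 50.1 in Aire-/-, 47.1 and 47.2 in Aire+/+, 24.4 and 14.99 in Brg1-/-, with 20.1 and 38.1 in Brg1+/+. The Aire-/- mTEChi libraries were both above the other 14, but the log2 fold change of 1.81 over Aire+/+ did not pass over all regions (SE 0.51, unadjusted p = 0.00122, limma adjusted p = 0.200). Among the settings tried it passed without replicate 1 of Aire+/+ mTEChi (2.46, adjusted p = 0.0388), and gave adjusted p-values of 0.122 to 0.585 under the others. At +43.38 kb, whose values stand above, the log2 fold change was 1.61 (SE 0.51, unadjusted p = 0.00316, limma adjusted p = 0.257). At +0.38 kb it was 0.24 (SE 0.31, limma adjusted p = 0.848), and at +3.51 kb 0.65 (SE 0.45, limma adjusted p = 0.651). The difference between sorts in the Aire effect gave 0 calls (background 0.000444%), with 3 members at an unadjusted p under 0.05 (5.15% of all regions). It was 1.61 at +3.51 kb (unadjusted p = 0.0163) and 1.92 at +43.38 kb (0.0114), with an adjusted p of 0.959 at both.

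Loss of Brg1 likewise gave no call, with the same limit, since only 58 of 225281 regions were called in mTEChi and 1 in mTEClo. Brg1-/- against Brg1+/+ had 0 members called in mTEChi (limma, background 0.0257%) and 0 in mTEClo (0.000444%), with 2 and 1 of the 45 at an unadjusted p under 0.05 (10.7% and 6.15% of all regions). Median log2 fold changes were 0.06 in mTEChi and 0.17 in mTEClo, against 0.22 and 0.05 for all regions. In mTEChi, 25 of 45 were positive, and in mTEClo 29 of 45. Libraries of the genotypes did not overlap, Brg1-/- above, at 8 of 45 members in mTEChi (background 24.8% of regions) and 12 of 45 in mTEClo (20.6%). Brg1-/- lay below without overlap at 7 of 45 (11.7%) and 7 of 45 (18.4%). At +47.7 kb, where the Brg1-/- mTEChi libraries were the lowest, the log2 fold change was -1.74 (SE 0.51, unadjusted p = 0.00165, limma adjusted p = 0.208). At +3.51 kb it was -0.88 in mTEChi (unadjusted p = 0.0596, adjusted 0.490) and 1.06 in mTEClo (0.0249, adjusted 0.753), the opposite signs that make up the difference of -1.94 given above. At +0.38 kb it was -0.14 (SE 0.31, limma adjusted p = 0.908). The difference between sorts in the Brg1 effect gave 0 calls (background 0%), with the +3.51 kb region the single member at an unadjusted p under 0.05 (7.09% of all regions).

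**Figure D4:**
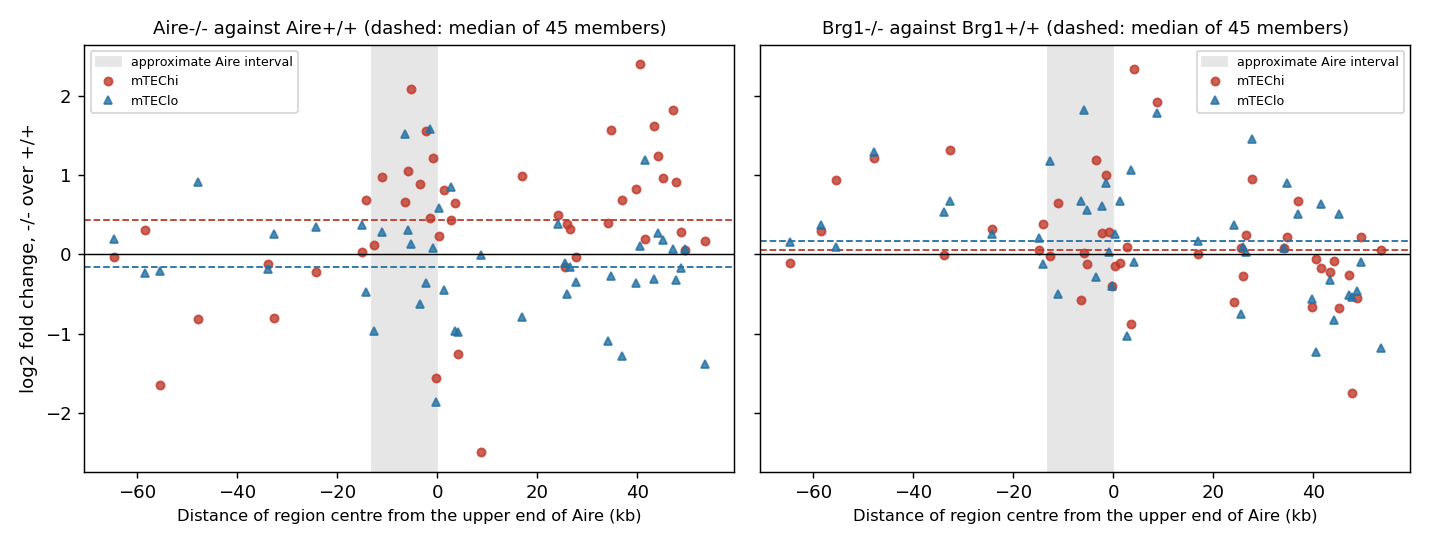
Log2 fold change of Aire-/- over Aire+/+ (left) and of Brg1-/- over Brg1+/+ (right) for 45 regions against distance from the upper end of Aire in kb, with mTEChi as circles and mTEClo as triangles. Dashed lines are the medians of the 45, 0.43 in mTEChi and -0.16 in mTEClo for Aire, and 0.06 and 0.17 for Brg1; no point is a call.

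The +/+ groups of the 2 lines were also set against each other. They differ in line and may differ in processing, and these cannot be told apart here. Aire+/+ against Brg1+/+ gave 0 calls in mTEChi (limma, background 0.156%) and 0 in mTEClo (0.0368%), with 2 members at an unadjusted p under 0.05 in each (10.5% and 7.4% of all regions). The median log2 fold change was 0.22 in mTEChi and 0.60 in mTEClo, against 0.18 and 0.42 for all regions. The lowest p in mTEChi was at +48.72 kb (log2 fold change -1.66, SE 0.54, unadjusted p = 0.00406, adjusted 0.242). It became a call without replicate 1 of Aire+/+ mTEChi (-2.66, adjusted p = 0.0191), was -0.66 without replicate 2, and had adjusted p-values of 0.131 to 0.875 under the settings other than the first.

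Regions that followed the same pattern over the 16 libraries were sought from the strongest region inside the Aire interval by mean log2 signal, that at -11.05 kb. As a description, the 5 regions elsewhere with the highest Pearson r of log2 signal were chr6:134795724-134796223 (0.96), chr13:94634306-94634805 (0.95), chr6:124851899-124852398 (0.95), chr1:40347250-40347749 (0.94) and chr4:107818241-107818740 (0.94). All 5 had a higher mean in mTEChi than in mTEClo, and their r within the 8 mTEChi libraries was 0.84 to 0.96. Among members, the highest r with it were 0.79 at +0.38 kb, 0.79 at -14.14 kb and 0.77 at +43.38 kb, and the lowest was -0.63 at +17.03 kb. The sorts shift these values together, and within the 8 mTEChi libraries those at +0.38, -14.14 and +43.38 kb were 0.64, 0.48 and 0.31. Taking the +0.38 kb region instead, a choice made after its values were seen, gave 0.85 with the region at -1.4 kb and -0.87 with that at +17.03 kb. The -1.4 kb region lies inside the Aire interval but was not assigned to Aire.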

How the data were processed

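Per the submitters' processing notes, Bowtie2 and MACS2 were used with the mm9 build. Region definition, duplicate removal and scaling are not given in the sources. The authors deposited normalized signal for 250313 regions, with 1 column per library (16) matched by its description. These are not counts, so depth and counting error are unknown.

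Fold changes are differences of log2(signal + 1), a scale that understates changes of weak regions. Regions under the 10th percentile of mean signal (7.48) were left out, which kept 225281. limma 3.58.1 in R 4.3.3, with trend and robust settings, fitted 1 mean for each of 8 groups (8 residual degrees of freedom). Tests covered 13 contrasts, two-sided, each with Benjamini-Hochberg adjustment over all regions. The fit was also run on simulated data, with independent noise per region and changes planted only at regions of median signal or above. That setting lacks the shared signal levels of these libraries, so it does not speak to the weak members.

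The members and lists were chosen with earlier results of these data known. All members inside the Aire interval or within 10 kb upstream, and any called, are given in every library, others by means and ranges. Motifs were searched on both strands of the RefSeq promoter. Positions count from 1. Alternatives changed 1 choice at a time.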

Additional observations from a re-analysis of the deposited data

How the results depend on the processing

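The count of members called between sorts on the mean of genotypes was 27, 17 with equal library medians, and 21 to 29 on leaving out 1 library. In Aire-/- the count was 10, 6 with equal medians, 18 with quality weights and 3 to 6 on leaving out 1 library. Aire+/+ gave 8, 5 with equal medians, and 2 to 6. Brg1+/+ gave 7, 3 with quantile normalization, 3 with equal medians, and 2 to 5. Brg1-/- gave 4, and 2 to 4. Leaving out replicate 1 of Aire+/+ mTEChi gave 1 call for Aire-/- against Aire+/+ (+47.15 kb) and 1 for Aire+/+ against Brg1+/+ in mTEChi (+48.72 kb), so that these counts ran from 0 to 1; the other 6 comparisons between genotypes stayed at 0. The fold change at +26.02 kb on the mean of genotypes reversed to -0.023 with equal medians. The cause of these shifts was not tested beyond the construction of each setting: equal medians lower every sort difference on the mean of genotypes by 0.43, and those of single genotypes by unequal amounts, and a left-out library leaves 1 in its group, assumed to vary like the others.

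With the replicate number as a block, the mean of genotypes gave 27 calls, as without the replicate block. Deviations from group means correlated between same-numbered libraries of 28 pairs of groups with r from -0.018 to 0.034. No shared deviation by replicate number was thus seen across regions. Whether same-numbered libraries came from the same mice or sort is not stated, and these correlations cannot tell. Settings chosen after the data were seen gave a median Aire effect of the members in mTEChi of 0.38 to 0.50 on leaving out 1 library and 0.51 with equal medians. Depth is not recorded, so no limit of detection could be set for the weak members.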
